A study of Mus musculus with 15 samples.

Results

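The 9 genes described here encode cytosolic sulfotransferases, and they were taken from the liver count table by their symbols: Sult1a1, Sult1b1, Sult1d1, Sult1e1, Sult2a1, Sult2a2, Sult2a8, Sult2b1 and Sult3a1. They are 9 of the 55573 genes of the table, and 7 of them had enough reads to be tested among 17655 genes. Liver RNA was sequenced from 15 mice aged 8 weeks, each with a library of its own: 4 ESR1KO males and 5 ESR1KO females, with 3 WT mice of each sex. All were of the strain labelled B6N(Cg)-Esr1tm4.2Ksk/J and untreated as far as the labels say. The ESR1KO mice were homozygous offspring of heterozygous parents and lacked exon 3 of Esr1, which encodes estrogen receptor alpha. The deletion was global and so covered gonads and pituitary as well as liver, and the study describes these mice as infertile with raised testosterone in both sexes. An effect on the liver itself and one through circulating hormones cannot be told apart in this design.

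Sulfotransferases transfer a sulfonate group from the donor PAPS (3′-phosphoadenosine 5′-phosphosulfate) to steroids, bile acids, phenols and amines, which makes these molecules more water soluble and in most cases inactive at their receptors. Members of the Sult1 family favour phenols, thyroid hormones and catecholamines, whereas members of the Sult2 family favour hydroxysteroids and bile acids. The liver is a main site of these reactions, and many hepatic sulfotransferase genes of rodents differ between the sexes.

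The promoters shown here are those of members whose levels differed between WT females and WT males, so that the sequence next to each start can be read beside its values. Each is the 300-base RefSeq window on GRCm38.p6 from 250 bases before to 50 bases after an annotated transcription start, written 5′ to 3′ on the strand of the gene. Capitals mark matches on either strand to TTCNNNGAA, the core bound by STAT5 dimers, or to AGGTCA, a hexamer bound by many nuclear receptors. The windows are chr10:33857472-33857771 on the plus strand for Sult3a1, and on the minus strand chr7:126676369-126676668 for Sult1a1, chr5:87568957-87569256 for Sult1d1 and chr7:14438502-14438801 for the second annotated start of Sult2a8.
Sult3a1: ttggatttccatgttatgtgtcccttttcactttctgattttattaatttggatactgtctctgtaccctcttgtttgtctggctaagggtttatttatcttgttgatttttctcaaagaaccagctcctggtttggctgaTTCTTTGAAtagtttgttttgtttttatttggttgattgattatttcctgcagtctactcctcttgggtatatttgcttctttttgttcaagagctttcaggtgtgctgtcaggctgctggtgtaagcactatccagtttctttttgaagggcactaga
Sult1a1: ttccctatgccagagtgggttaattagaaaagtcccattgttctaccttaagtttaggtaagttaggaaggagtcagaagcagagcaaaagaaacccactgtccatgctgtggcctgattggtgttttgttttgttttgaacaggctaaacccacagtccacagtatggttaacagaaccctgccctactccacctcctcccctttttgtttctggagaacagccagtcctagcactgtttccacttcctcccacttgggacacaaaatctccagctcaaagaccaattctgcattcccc
Sult1d1: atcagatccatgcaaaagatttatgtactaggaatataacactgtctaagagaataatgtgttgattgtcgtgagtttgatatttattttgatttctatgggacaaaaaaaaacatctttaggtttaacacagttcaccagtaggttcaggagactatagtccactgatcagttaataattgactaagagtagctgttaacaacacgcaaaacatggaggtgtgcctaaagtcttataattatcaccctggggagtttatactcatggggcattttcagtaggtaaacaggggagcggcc
Sult2a8: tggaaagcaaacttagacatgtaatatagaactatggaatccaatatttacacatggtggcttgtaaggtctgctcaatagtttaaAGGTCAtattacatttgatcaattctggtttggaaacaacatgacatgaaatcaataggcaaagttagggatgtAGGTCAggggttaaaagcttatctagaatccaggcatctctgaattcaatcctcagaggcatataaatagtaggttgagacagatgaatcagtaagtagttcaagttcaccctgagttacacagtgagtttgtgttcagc

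The Sult3a1 window held 1 match to TTCNNNGAA, at position -109 from the start, and it was the only 1 of 10 windows of the members with this core, which 8.3% of 32851 promoter windows of the same length held. The Sult2a8 window held AGGTCA at positions -164 and -90. The hexamer was present in 3 of the 10 windows of the members, the others being those of Sult1b1 and Sult1e1, and in 16.3% of all windows. No window of a member held the palindromic estrogen response element core, which 0.07% of all windows held and whose ends can overlap the hexamer. The windows of Sult1a1 and Sult1d1 and the first start of Sult2a8 held none of the 3 motifs. For Sult2a8 only the window with matches is shown, and which start these livers used was not tested. Sult2a1 and Sult2a2 are named only, and windows were available for 7 of the 9 members. A match is a run of letters in this window and was not tested for binding.

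Total counts ranged from 27799061 to 78624766 per mouse, and levels are given as CPM, the counts scaled to the size of the library with TMM factors. Esr1 was read at 74.7, 88.2 and 82.8 CPM in WT females, at 25.0, 31.2 and 52.0 CPM in WT males, at 9.67 to 19.7 CPM in ESR1KO females and at 8.22 to 16.1 CPM in ESR1KO males, and every ESR1KO mouse was below every WT mouse. These counts cover the whole gene and do not show exon 3 on its own. The 6 hepatocyte markers summed to between 104100 and 111100 CPM in WT females, 80720 and 80960 CPM in WT males, 86140 and 109700 CPM in ESR1KO females and 90770 and 99530 CPM in ESR1KO males. These ranges do not overlap between WT females and WT males. Alb, at 82840 to 91600 CPM in WT females and 53550 to 55920 CPM in WT males, made up most of the sum. It was the 1 of the 6 markers that passed edgeR's test there, with a log2 fold change of 0.66 (SE 0.18, edgeR adjusted p = 0.0382). The median log2 fold change over the 6 markers was -0.37, so the others did not all follow Alb. Of the 6, 5 had an unadjusted p under 0.05 in edgeR, a threshold for which the share of all genes is not given here. DESeq2 called 3 of the 6, and 1225 of 17655 genes. The 6 cholangiocyte markers summed to between 32.5 and 33.1 CPM in WT females, below the 34.1 to 55.7 CPM of WT males, the 44.1 to 51.5 CPM of ESR1KO females and the 41.5 to 59.6 CPM of ESR1KO males. Spp1, at 28.5 to 29.3 CPM in WT females and 30.4 to 51.2 CPM in WT males, made up most of that sum, and the other markers did not all follow it. Between the WT sexes Epcam was higher in females (log2 fold change 1.08, adjusted p = 0.00657), Sox9 was lower (-1.03, adjusted p = 0.0384), and Krt19, at 0.61, was not called (adjusted p = 0.293). The 6 adipocyte markers summed to between 6.18 and 6.69 CPM in WT females, 5.12 and 8.92 CPM in WT males, 8.86 and 11.6 CPM in ESR1KO females and 10.7 and 17.5 CPM in ESR1KO males, with Adipoq at 0 to 4 reads per mouse and Lep at 0 in all. The part of these shifts in the differences below was not tested, and in whole liver fewer cells of a type and less RNA per cell cannot be told apart.

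The first question was which sulfotransferases differ between the sexes in livers with the receptor. In WT livers, 5 of the 7 tested members were higher in females (Sult3a1, Sult2a2, Sult2a1, Sult1a1 and Sult1d1), 1 was lower (Sult2a8) and Sult1b1 did not pass the test. Over all tested genes 2.67% were called higher and 2.20% lower in WT females than in WT males, at an adjusted p under 0.05 from edgeR's quasi-likelihood test. The median log2 fold change over the 7 members was 1.36, against 0.01 over all genes. Sult3a1, Sult2a2 and Sult2a1 passed the filter on low counts only through WT females, so they had to differ. The count of members and their median are a description.

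The phenol sulfotransferase Sult1a1 was read at 430, 379 and 383 CPM in the 3 WT females and at 137, 179 and 149 CPM in the 3 WT males. Every WT female was above every WT male, and the means were 398 ± 28.5 CPM and 155 ± 21.8 CPM (SD, n = 3 each). The log2 fold change was 1.36 (SE 0.16), or 2.56-fold, with an adjusted p of 4.38e-05.

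Sult1d1, which sulfonates catecholamines and other phenolic amines, was read at 160, 156 and 192 CPM in WT females and at 84.6, 82.5 and 57.0 CPM in WT males. The sexes did not overlap, and the log2 fold change was 1.18 (SE 0.28, adjusted p = 0.0198). Without WT female 3 the adjusted p was 0.0818 and without WT male 3 it was 0.0864, so this call needs both mice.

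Sult2a8, a bile acid sulfotransferase of mouse liver and the member with the most reads, went the other way. It was read at 493, 496 and 609 CPM in WT females and at 1007, 891 and 909 CPM in WT males, again with no overlap. On the log2 scale the difference was -0.81 (SE 0.21), with an adjusted p of 0.0357. The adjusted p lay between 0.0572 and 0.132 when any 1 of the 6 WT mice was left out, so the call needs all 6, while the log2 value stayed between -0.92 and -0.76.

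Sult1b1, which acts on thyroid hormones and simple phenols, lies next to Sult1d1 and was read at 28.4, 22.8 and 28.2 CPM in WT females and at 28.4, 25.2 and 22.8 CPM in WT males. The sexes overlapped, with a log2 fold change of 0.05 and a 95% interval from -0.25 to 0.36 (adjusted p = 0.892). The sign of this small difference turned to -0.02 without WT male 3.

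**Figure D1:**
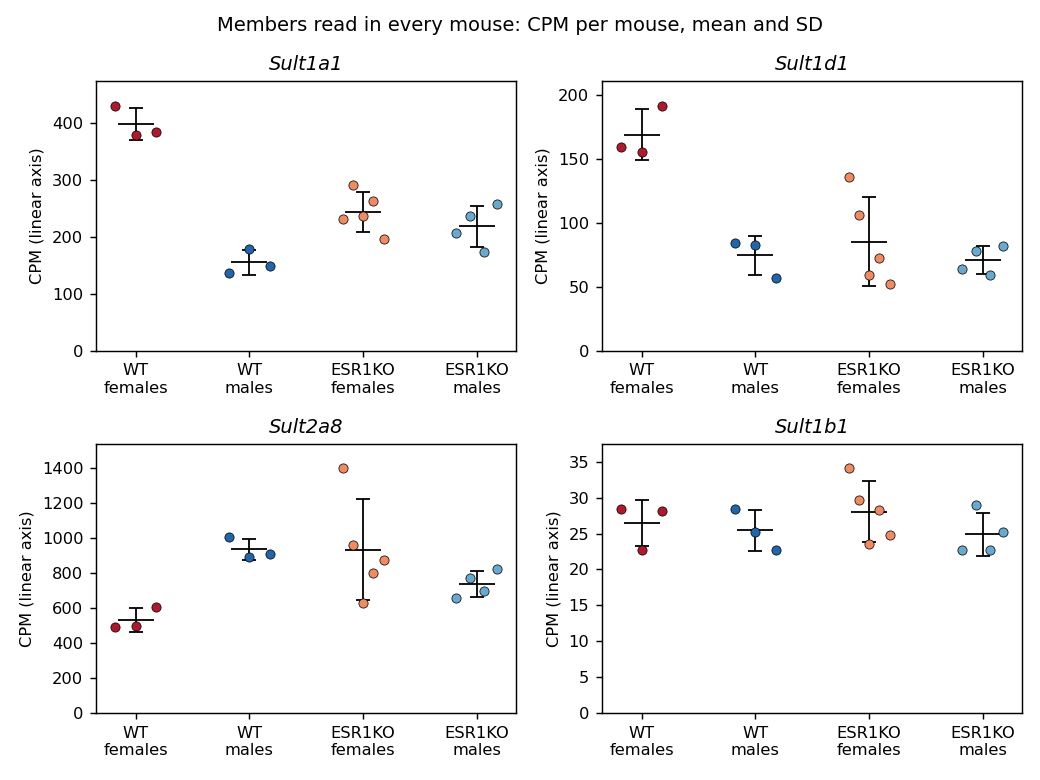
CPM per mouse (vertical linear axis from 0) of Sult1a1, Sult1d1, Sult2a8 and Sult1b1 in the 4 groups. Points are mice and bars the mean and SD; WT females stand above the other 12 mice for Sult1a1 and Sult1d1 and below them for Sult2a8, while the groups overlap for Sult1b1.

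The remaining members of the WT comparison were genes with almost no reads outside WT females. Sult3a1, which sulfonates amines, had 6910, 3505 and 5234 reads in the WT females and 1, 0 and 0 reads in the WT males. The ratio of their levels was 15580-fold, with an exact 95% interval from counting alone of 2795 to 615200. In CPM the WT females were at 119, 80.8 and 120.

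Sult2a2, a hydroxysteroid sulfotransferase, had 1427, 589 and 1367 reads in the WT females and 0 in each WT male. It was at least 1122-fold higher in WT females, taking the 3 counts that a count of 0 allows over the group of males. Sult2a1, its neighbour and also a hydroxysteroid sulfotransferase, had 672, 275 and 845 reads in the WT females and 1, 0 and 0 in the WT males, a ratio of 1784 (95% counting interval 320 to 70480). All 3 WT females were far above every male for these genes, and WT female 2 was the lowest of the 3 for each. In edgeR's fit the adjusted p was 3.95e-12 for Sult3a1, 3.67e-09 for Sult2a2 and 2.25e-05 for Sult2a1. Since these genes passed the filter only through WT females, these p are a description and lend no support.

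The estrogen sulfotransferase Sult1e1 was near the limit of detection in every group, with 11, 3 and 4 reads in the WT females, 0, 1 and 4 in the WT males, 2 or 3 in each ESR1KO female and 0 to 2 in each ESR1KO male. Sult2b1, which sulfonates cholesterol and pregnenolone and is best known from skin, had at most 2 reads in any mouse and 14 over all 15 mice. Neither gene passed the filter, and differences in them were not detectable at this depth. In a fit of all genes with at least 1 count, neither was called in any of the 6 comparisons.

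**Figure D2:**
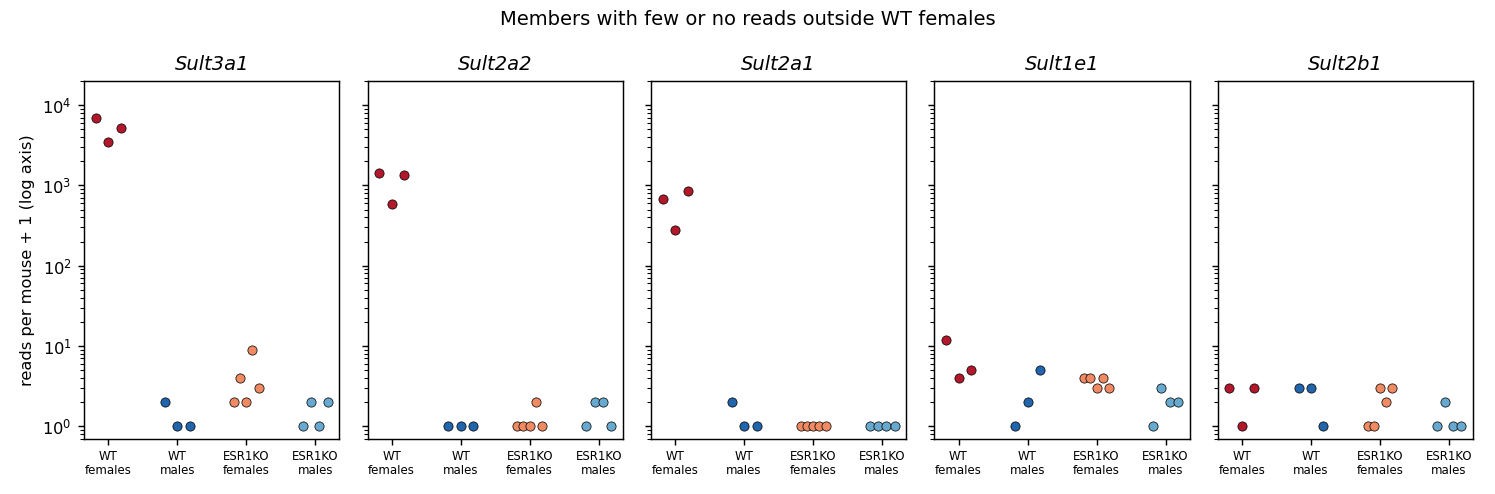
Reads per mouse plus 1 (vertical log axis) of Sult3a1, Sult2a2, Sult2a1, Sult1e1 and Sult2b1 in the 4 groups, each point 1 mouse. For the first 3 genes each WT female had between 275 and 6910 reads and no other mouse more than 8, whereas Sult1e1 and Sult2b1 had at most 11 reads in any mouse.

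The next question was what remains of these sex differences without the receptor. Between ESR1KO females and ESR1KO males 0 of the 7 tested members were called by edgeR, and 0 by DESeq2, while 1 member, Sult3a1, had an unadjusted p under 0.05. In this comparison 0.159% of all genes were called higher and 0.113% lower in ESR1KO females. The median log2 fold change was 0.27 over the 5 members with more than 3 reads in at least 1 of the groups and 0.01 over all genes. A p that misses the threshold does not show equal levels, and the intervals below give what the 9 mice allow.

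Sult1a1 was read at 232, 291, 237, 263 and 195 CPM in the 5 ESR1KO females and at 206, 237, 174 and 257 CPM in the 4 ESR1KO males. The sexes overlapped, and the log2 fold change was 0.16 with an interval from -0.13 to 0.44 (adjusted p = 0.544). Sult1d1 was read at 136, 107, 59.6, 72.6 and 52.4 CPM in ESR1KO females and at 64.2, 78.4, 59.6 and 81.9 CPM in ESR1KO males. The range of Sult1d1 in ESR1KO females spanned that of the males, with a log2 fold change of 0.27 (interval -0.22 to 0.75, adjusted p = 0.55).

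Sult2a8 was spread widely in ESR1KO females, at 1399, 962, 630, 802 and 877 CPM, and was read at 658, 773, 699 and 822 CPM in ESR1KO males. ESR1KO female 1 was the highest and ESR1KO female 3 the lowest of these 9 mice. The fitted difference was 0.34 on the log2 scale (SE 0.18, interval -0.03 to 0.71, adjusted p = 0.325). Sult1b1 lay between 23.6 and 34.1 CPM in ESR1KO females and between 22.7 and 29.0 CPM in ESR1KO males (log2 fold change 0.17, interval -0.08 to 0.42).

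Sult3a1 had 1, 3, 1, 8 and 2 reads in the ESR1KO females and 0, 1, 0 and 1 in the ESR1KO males, a ratio of 6.53 with a counting interval of 1.52 to 58.9 and an adjusted p of 0.204. Sult2a2 had 1 read in all ESR1KO females together and 2 in all ESR1KO males, and Sult2a1 had 0 in both.

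The genotypes were then compared within each sex. In females, 1 of the 7 tested members was higher in ESR1KO than in WT (Sult2a8) and 5 were lower (Sult3a1, Sult2a2, Sult2a1, Sult1a1 and Sult1d1), against 3.14% of all genes called higher and 2.57% lower. The median log2 fold change was -0.99 over the 7 members and -0.00 over all genes. The WT females entered this comparison and the comparison of the WT sexes, so the mirrored directions are not 2 independent observations. Since Sult3a1, Sult2a2 and Sult2a1 passed the filter only through WT females, their lower values here were fixed as well, and the count and the median are a description.

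Sult3a1 fell from 15649 reads over the 3 WT females to 15 over the 5 ESR1KO females, which left 0.023 to 0.165 CPM per mouse against at least 80.8 CPM. This was a log2 fold change of -10.63 (SE 0.29, adjusted p = 2.93e-13). Sult2a2 fell from 3383 reads to 1, a ratio of 5436 (counting interval 975 to 214800, adjusted p = 5.38e-10). Sult2a1 fell from 1792 reads to 0 and was at least 960-fold lower in ESR1KO females (adjusted p = 7.76e-06). The adjusted p of these 3 genes are a description too, as the filter had fixed the direction.

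The decreases of Sult1a1 and Sult1d1 were partial. The mean of Sult1a1 was 244 ± 35.9 CPM in ESR1KO females (SD, n = 5), with every mouse below the WT females, and the log2 fold change was -0.71 (SE 0.14, adjusted p = 0.00767). Without WT female 1 the adjusted p was 0.0505. The mean of Sult1d1 was 85.4 ± 35.04 CPM in ESR1KO females against 169 ± 19.9 CPM in WT females, again without overlap, with a log2 fold change of -0.99 (SE 0.24, adjusted p = 0.0272). This call was lost without WT female 1 (adjusted p = 0.069), WT female 2 (0.063), WT female 3 (0.129) or ESR1KO female 4 (0.0526), and at an adjusted p of 0.0809 when the fit held only the 2 groups compared.

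Sult2a8 rose from 533 ± 66.3 CPM in WT females to 934 ± 287 CPM in ESR1KO females, and the lowest ESR1KO female, at 630 CPM, was above the highest WT female, at 609 CPM. Its log2 fold change was 0.81 (SE 0.20, adjusted p = 0.0239). The adjusted p was 0.102 without WT female 1, 0.102 without WT female 2 and 0.102 when only the 2 groups were fitted. Without ESR1KO female 1, the mouse with the highest level, the log2 fold change was 0.62 and the adjusted p 0.0183. Sult1b1 differed by 0.08 on the log2 scale (interval -0.19 to 0.36, adjusted p = 0.741).

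In males, 0 of the 7 tested members were called between ESR1KO and WT by edgeR and 0 by DESeq2, and 1, Sult1a1, had an unadjusted p under 0.05. Over all genes 0.833% were called higher and 0.583% lower in ESR1KO males, and the median log2 fold change was -0.05 over the 4 members with reads in every mouse and -0.00 over all genes. Sult1a1 averaged 219 ± 36.3 CPM in ESR1KO males (SD, n = 4) and 155 ± 21.8 CPM in WT males, with 1 ESR1KO male at 174 CPM below the highest WT male at 179 CPM. Its log2 fold change was 0.49 (SE 0.15, adjusted p = 0.148). Sult2a8 averaged 738 ± 73.4 CPM in ESR1KO males against 936 ± 62.3 CPM in WT males and did not overlap, but the log2 fold change of -0.34 (interval -0.76 to 0.08) had an adjusted p of 0.55. Sult1d1, at 71.0 ± 10.8 CPM and 74.7 ± 15.4 CPM, and Sult1b1, at 24.9 ± 2.98 CPM and 25.5 ± 2.84 CPM, overlapped, with log2 fold changes of -0.07 and -0.03 whose sign changed when single mice were left out.

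Whether the genotype effect differed between the sexes was tested by the interaction term, the log2 effect of genotype among females less the one among males. Over all genes 1.02% had a positive and 0.923% a negative interaction at an adjusted p under 0.05, and 1 and 3 of the 7 tested members were called. Of the 3, Sult2a2 and Sult3a1 passed the filter on low counts only through WT females. Their negative direction was thereby fixed, and the count is a description. The median over the 4 members read in every mouse was -0.40, against -0.01 over all genes. For Sult1a1 the interaction was -1.20 on the log2 scale (SE 0.21, adjusted p = 0.00401). It stayed under the threshold when each of the 15 mice was left out, with a highest adjusted p of 0.0205. For Sult2a8 the interaction was 1.15 (SE 0.28, adjusted p = 0.0388), and the adjusted p rose to between 0.0527 and 0.116 without any 1 of the 6 WT mice, the 4 ESR1KO males or ESR1KO female 2. Sult1d1, at -0.91 (SE 0.36), had an adjusted p of 0.266, so its decrease in females was not shown to differ from the values in males. Its interval ran from -1.68 to -0.15 and its unadjusted p from the fit was 0.0217, so the values are not shown to be alike either. The interaction of Sult1b1 was 0.12 (interval -0.28 to 0.51).

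Sult3a1 and Sult2a2 were also called, with adjusted p of 0.0329 and 0.0235, and Sult2a1 was not, with an adjusted p of 1 in edgeR and 2.19e-06 in DESeq2. For these genes 3 of the 4 groups had 15 reads or fewer in all, so that the fitted interaction depends on single reads and its size has no meaning. Without ESR1KO male 2 the adjusted p was 0.179 for Sult3a1 and 0.136 for Sult2a2. Sult3a1 also lost its call without WT male 2 (0.0569), WT male 3 (0.0577) or ESR1KO male 4 (0.224), and Sult2a2 did so without ESR1KO female 4 (0.0552) or ESR1KO male 3 (0.152).

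**Figure D3:**
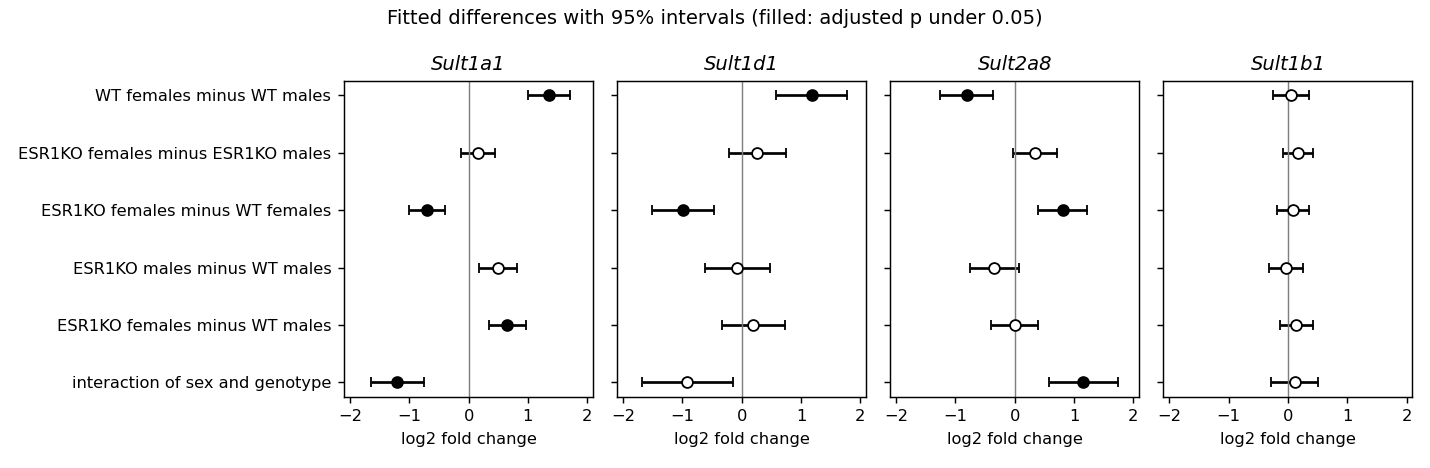
Fitted log2 fold changes (horizontal axis) with 95% intervals for Sult1a1, Sult1d1, Sult2a8 and Sult1b1 in 5 comparisons of groups and the interaction of sex and genotype. Filled points have an adjusted p under 0.05; the WT sex difference of Sult2a8, at -0.81, points away from those of Sult1a1 and Sult1d1, at 1.36 and 1.18, and Sult1b1 is not called anywhere.

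ESR1KO females were lastly set against WT males. Here 1 of the 7 tested members was called, Sult1a1, which was higher in ESR1KO females, and 0 were lower, against 1.38% and 1.23% of all genes, and the median log2 fold change was 0.19 over the 5 members with more than 3 reads in at least 1 of the groups and 0.03 over all genes. The log2 fold change of Sult1a1 was 0.65 (SE 0.15, adjusted p = 0.0264), and the lowest ESR1KO female, at 195 CPM, was above the highest WT male, at 179 CPM. The call was lost without WT male 1 (adjusted p = 0.142), WT male 3 (0.12) or ESR1KO female 2 (0.0632), and when only the 2 groups were fitted (0.0822). Sult2a8 differed by -0.00 on the log2 scale with an interval from -0.40 to 0.40, and Sult1d1 by 0.19 (interval -0.34 to 0.72). Sult3a1, at 15 reads over 5 ESR1KO females and 1 over 3 WT males, had an adjusted p of 0.195.

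The 3 members with many reads and a sex difference in WT livers had different orders of groups. For Sult1a1 the order of the means was WT females, ESR1KO females, ESR1KO males and WT males, of which the neighbours in the ESR1KO mice (adjusted p = 0.544) and the males of both genotypes (adjusted p = 0.148) did not differ beyond the test. For Sult1d1 WT females were followed by ESR1KO females, WT males and ESR1KO males, and no test among the last 3 groups passed. For Sult2a8 WT males and ESR1KO females had nearly the same mean and were followed by ESR1KO males and WT females; the test between the first pair gave an adjusted p of 0.997 and that between the ESR1KO sexes 0.325.

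Divided by the exon length of each gene, so that genes can be compared, the 9 members summed to 640 ± 64.1 CPM per kb in WT females (SD, n = 3), 428 ± 18.1 in WT males (n = 3), 491 ± 105 in ESR1KO females (n = 5) and 408 ± 49.5 in ESR1KO males (n = 4). The lowest WT female, at 569 CPM per kb, was above every male but below the highest ESR1KO female, at 647. Sult1a1 and Sult2a8 together made up most of this sum in every mouse, in different proportions. Sult1a1 took 36.7% to 44.2% of it in WT females and Sult2a8 22.8% to 26.8%, whereas in WT males Sult1a1 took 20.6% to 27.5% and Sult2a8 62.7% to 69.3%. In ESR1KO mice Sult2a8 took the larger share in each mouse, with 50.2% to 65.8% in females and 54.0% to 59.0% in males. Sult3a1 took 12.3% to 15.6% in WT females and at most 0.0312% elsewhere. Exon length here is the union of annotated exons, and transcripts in use may be shorter.

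The members lie in a few groups of neighbouring genes on GRCm38. Sult2a1 and Sult2a2 lie in the Sult2a cluster at chr7:13623967-14494230, a stretch of 870 kb with 12 genes of this family, 8 of them protein coding, and Sult2a8 lies near its far end. From Sult2a5 to Sult2a6 the 6 protein-coding genes Sult2a1 to Sult2a6 had 5664 reads over the 3 WT females and 5 over the other 12 mice. Among these, Sult2a5 had 59, 72 and 194 reads in the WT females and 0 elsewhere, Sult2a6 had 0, 35 and 95 reads in the WT females and 1 elsewhere, and Sult2a3 had 32 reads in all WT females and 0 elsewhere. Sult2a8 and Sult2a7, the last 2 genes of the cluster, were read in every mouse, with Sult2a7 at 0.465 to 2.23 CPM.

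**Figure D4:**
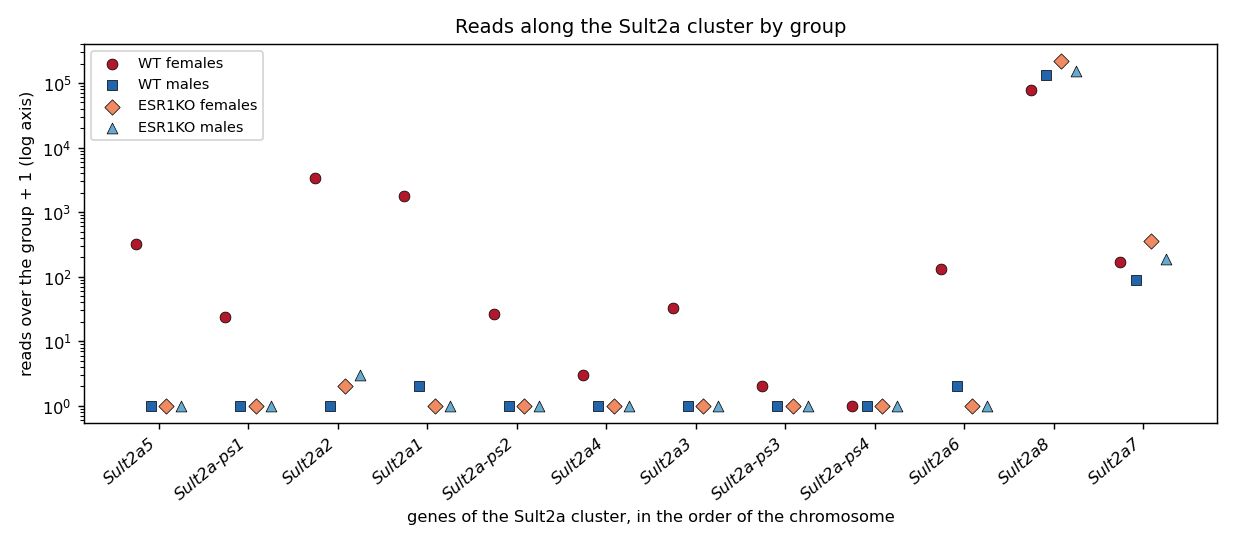
Reads summed over each group plus 1 (vertical log axis) for the 12 genes of the Sult2a cluster, placed in the order of the chromosome and not to scale. From Sult2a5 to Sult2a6 reads came almost entirely from WT females, and at Sult2a8 the 4 groups had between 76738 and 217568 reads.

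Reads on this cluster can be hard to place. Of the 50-base windows of the Sult2a2 transcripts 62.1% also occurred in another gene, and 33.2% of those of Sult2a1, mostly in each other and in Sult2a4 and Sult2a5. At 100 bases the shares were 34.6% and 11.4%. The counts thus may split reads between these genes or leave shared reads out, and which was done was not given. The sum over Sult2a1 to Sult2a6 does not depend on a split among them, but it would also miss reads left out. In the WT females there were 2.12, 2.14 and 1.62 Sult2a2 reads per Sult2a1 read. The corresponding shares at 50 bases were 7.36% for Sult1a1, 6.15% for Sult3a1, shared with Sult3a2, and 1.96% for Sult2a8. Sult1b1, Sult1d1 and Sult1e1 shared none.

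Sult1b1, Sult1d1 and Sult1e1 are the 3 members of a 78 kb group at chr5:87513339-87591594, all on the minus strand. These neighbours differed in level and pattern: Sult1d1 was higher in WT females, Sult1b1 was read at a similar level in all 4 groups, and Sult1e1 was close to 0. Sult3a1 lies at chr10:33857721-33879532 beside Sult3a2, which had 172, 68 and 202 reads in the WT females and 1 read over the other 12 mice. Both lie on the chromosome of the targeted gene, and Sult3a1 is 28852 kb from Esr1. In the WT females there were 40.2, 51.5 and 25.9 Sult3a1 reads per Sult3a2 read. Sult1a1 lies at chr7:126672865-126676432 and Sult2b1 at chr7:45729983-45784669, apart from the Sult2a cluster, and Sult2b1 overlaps Lmtk3 on the opposite strand.

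The genes with the nearest profiles were found by the root mean square (RMS) difference of log2 CPM over the 15 mice, after each gene was centred on its mean. For Sult2a8 they were Ugt2b5 (RMS difference 0.095), Tdo2 (0.141) and Ugt2b36 (0.149), where Sult2a8 itself varied with an RMS of 0.386. For Sult1a1 they were Chmp4c (0.212), Evc (0.213) and Akr1d1 (0.222), with an RMS of 0.473 for the gene. For Sult1d1 they were Cyp39a1 (0.251), Zfp820 (0.292) and St3gal6 (0.309). Sult3a1 was nearest to Cyp2b13 (0.567), Cyp3a16 (0.707) and Cyp3a41b (0.719), Sult2a1 to Zbed4-ps2 (0.391), a pseudogene within Sult2a2 on the same strand, and Sult2a2 to Sult2a1 (0.469). Sult1b1, which varied little (0.173), was nearest to Cyb5a (0.084). A low RMS difference is a likeness of levels over these 15 livers and says nothing of control or function.

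The other cytosolic sulfotransferases and the rest of the pathway were read from lists. Between the WT sexes the median log2 fold change was 0.93 over the tested other Sult genes, -0.15 over genes of PAPS supply, 0.19 over genes of sulfate formation, -0.15 over sulfatase genes, 0.21 over Golgi sulfotransferases and -0.13 over sulfate transporters. Of 12 other Sult genes 5 were tested, and in WT livers 3 were higher in females, Sult3a2, Sult2a5 and Sult1c2, and 0 lower, against 2.67% and 2.20% of all genes. Sult3a2 and Sult2a5 had 442 and 325 reads in WT females and at most 1 elsewhere, so they too passed the filter only through WT females and had to differ, and the count and the median of 0.93 are a description. Sult1c2 was read at 9.94, 12.7 and 8.89 CPM in WT females and at 5.41, 5.28 and 6.17 CPM in WT males (log2 fold change 0.90, SE 0.20, adjusted p = 0.0117). It was not called between the female genotypes (-0.15, adjusted p = 0.649). Its higher level relative to WT males was also called in ESR1KO females (0.75, adjusted p = 0.0334). Between the ESR1KO sexes its values overlapped and it was not called (0.45, adjusted p = 0.184). The interaction of -0.44 was not called either (adjusted p = 0.432), so a sex difference kept without the receptor was not shown. Sult2a7 was called only in ESR1KO females against WT males, at 1.34 (SE 0.29, adjusted p = 0.0196).

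Sult5a1, a sulfotransferase whose substrates are little known, fell in both sexes. It was read at 31, 38.99 and 57.59 CPM in WT females, 31.29, 20.02 and 27.83 CPM in WT males, 6.04 to 18.5 CPM in ESR1KO females and 5.21 to 9.12 CPM in ESR1KO males. All 9 ESR1KO mice were below all 6 WT mice. The log2 fold change was -2.15 (SE 0.31, adjusted p = 0.000448) in females and -1.85 (SE 0.33, adjusted p = 0.00838) in males, and the interaction was -0.31 with an adjusted p of 0.792.

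Of 6 genes of PAPS supply, 3 had an unadjusted p under 0.05 in edgeR between the WT sexes, and 3 between the female genotypes. Both counts are a description, as the share of all genes at this unadjusted threshold is not given here. Papss2, which encodes a PAPS synthase, was the only 1 of the 6 called at the adjusted threshold. It was read at 384, 399 and 509 CPM in WT females, 170, 158 and 189 CPM in WT males, 124 to 176 CPM in ESR1KO females and 165 to 234 CPM in ESR1KO males, so that WT females stood above all other mice. The log2 fold change was 1.32 (SE 0.16, adjusted p = 5.03e-05) between the WT sexes and -1.44 (SE 0.14, adjusted p = 7.05e-06) between the female genotypes, with an interaction of -1.64 (SE 0.21, adjusted p = 0.000196). The same WT females entered each of these differences, which are thus not independent. Papss2 was not called in ESR1KO females against males (-0.32, adjusted p = 0.236).

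Among 8 genes that form sulfate from cysteine, Sqor, a mitochondrial sulfide oxidase, was called once, at 0.41 (SE 0.11, adjusted p = 0.0387) in WT females against WT males. Among 6 tested sulfatase genes, which act in the opposite direction or activate such enzymes, Arsa and Arsg were lower in WT females than in WT males, by -1.23 (adjusted p = 0.00605) and -1.04 (adjusted p = 0.0065), and higher in ESR1KO females than in WT females, by 1.22 (adjusted p = 0.00455) and 0.74 (adjusted p = 0.034). The same WT females entered both comparisons, so the mirrored directions are not independent observations. For Arsg the female genotypes overlapped, at 9.9 to 17.5 CPM in WT and 16.2 to 29.2 CPM in ESR1KO. The interaction was not called for Arsa (adjusted p = 0.226) or Arsg (adjusted p = 0.0524). Arsb was lower in ESR1KO females than in ESR1KO males, by -0.75 (adjusted p = 0.0256). These encode lysosomal enzymes, and steroid sulfatase was not analysed here. Arsa was read at 14.7 to 17.9 CPM in WT females, 33.7 to 47.3 CPM in WT males, 23.9 to 55.0 CPM in ESR1KO females and 38.6 to 65.2 CPM in ESR1KO males.

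**Figure D5:**
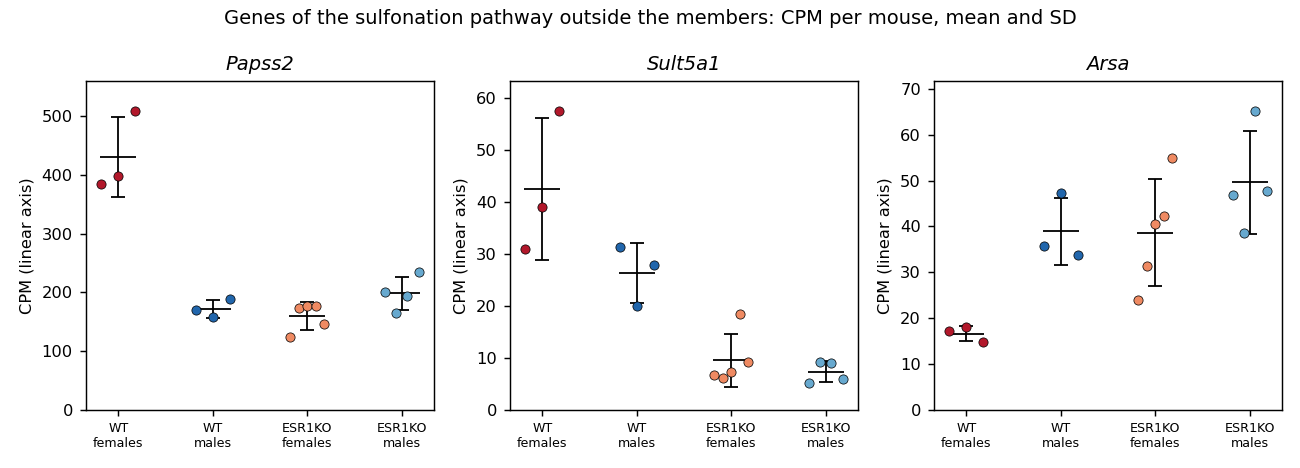
CPM per mouse (vertical linear axis from 0) of Papss2, Sult5a1 and Arsa in the 4 groups, with points for mice and bars for the mean and SD. WT females stand above all other mice for Papss2 and below them for Arsa, and for Sult5a1 the 9 ESR1KO mice, at 5.21 to 18.5 CPM, lie below the 6 WT mice, at 20.02 to 57.59 CPM.

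Of 14 tested sulfotransferases of the Golgi, which act on proteins and proteoglycans, 0 were called by edgeR in any of the 6 comparisons. Summed over these comparisons, 16 results had an unadjusted p under 0.05 and 2 were called by DESeq2. Of these, 7 and 2 fell between the female genotypes, where the median log2 fold change was -0.20. DESeq2 called 1546 of 17655 genes there. The share of all genes at an unadjusted p under 0.05 is not given here, so these counts are a description. Of 4 tested sulfate transporters 0 were called by either tool, and 0 had an unadjusted p under 0.05. Nr1i3, which encodes a nuclear receptor known to act on drug metabolism genes, was higher in WT females than in WT males (log2 fold change 0.95, SE 0.23, adjusted p = 0.0202).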

How the data were processed

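Total RNA of mouse liver was depleted of ribosomal RNA, and TruSeq libraries were sequenced by the authors. Per the labels and the paper, they trimmed reads with Trimmomatic 0.36, used STAR to align them to GRCm38 and HTSeq to count reads per gene. The deposited table holds these counts, whole and without normalization. The strand setting, the treatment of reads that match several genes and the annotation release were not given in the sources used here.

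All tests were run with edgeR 4.0.16 under R 4.3.3. Genes were kept by filterByExpr over the 4 groups, libraries were scaled by TMM (factors 0.957 to 1.035), and 1 quasi-likelihood fit of all 15 mice gave each comparison, with Benjamini-Hochberg adjustment over 17655 genes and no fold minimum. Total counts, 27799061 to 78624766 per mouse, set the precision. DESeq2 1.42.0, other scalings and filters, fold minimums, a replicate term and leaving out each mouse were alternatives. The fit was tested on simulated counts with known changes. These were drawn with the trended spread and 1 shared mean per gene, and only genes above 1 CPM were changed. Recovery for genes with a spread above the trend was not tested. A log2 change of 1 was recovered for 87.1% to 93.7% of changed genes in the comparisons of 2 groups, and for 58.3% in the interaction. For a group at 0, the limit is taken as 3 counts summed over its mice, and ratios have exact 95% binomial intervals, both for counting error only. Genes were placed with GENCODE M21, and promoters came from RefSeq. All 9 members and all called genes of the fixed lists, up to 4 per list and comparison, were named, except 1 that is not reported here, and the members and lists were chosen with earlier results of these data known. Each mouse is labelled as a separate sample, and mice of a group differed by a chi-square per gene of at least 23.5, against about 1 for sampling noise.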

Additional observations from a re-analysis of the deposited data

Results flagged for a closer look

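The genotype effect differed between the sexes, by the interaction term of edgeR's fit, for Sult1a1 (-1.20 on the log2 scale, adjusted p = 0.00401) and Sult2a8 (1.15, adjusted p = 0.0388), and the second was lost when single mice were left out. It was also called for Sult2a2 (-13.99, adjusted p = 0.0235) and Sult3a1 (-11.02, adjusted p = 0.0329), where the groups other than WT females had 0 to 15 reads in all and the size of the term has no meaning. Both genes passed the filter only through WT females, so the negative direction was fixed as well.

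Among 16 combinations of a member and a group of 4 or 5 mice whose values were not all equal, 2 had 1 mouse far from the others. Sult2a2 was at 0.0207 CPM in ESR1KO female 4, from 1 read, with 0 in the other ESR1KO females, and Sult2b1 at 0.0233 CPM in ESR1KO male 2, from 1 read, with 0 in the other ESR1KO males. Both rest on 1 read. A group with 1 read in 1 mouse and 0 in the others is always flagged, so the chance rate of about 1 in 20 groups does not apply to them.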

How the results depend on the processing

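Each log2 value of a member in a comparison was recomputed under 21 or 22 alternatives, 908 values in all, of which 847 kept their direction and their side of the threshold, 41 lost a call, 1 (Sult2a1 in the interaction, by DESeq2) gained one and 19 changed sign. The values that changed sign were small or rested on a few reads. Requiring a log2 fold change of at least 1.5 left 3 members called between the WT sexes, 3 between the female genotypes, 0 between ESR1KO females and WT males and 2 for the interaction. Requiring at least 1 left 3 between the female genotypes and 0 between ESR1KO females and WT males. Fitting only the 2 groups compared left 0 called between ESR1KO females and WT males. With each mouse left out, between 3 and 6 members were called between the female genotypes, 0 to 1 between ESR1KO females and WT males and 1 to 4 for the interaction. The female genotypes fell to 3 without WT female 1, and the comparison with WT males to 0 without WT male 1, WT male 3 or ESR1KO female 2. The interaction fell to 1 without ESR1KO male 2 and to 2 without WT male 2, WT male 3, ESR1KO male 3 or ESR1KO male 4. For the WT sexes the count of 6 was 4 without WT female 3 or WT male 3 and 5 or 6 without any other mouse, and 0 members were called in the other comparisons under all alternatives run.

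Leaving out single mice moved Sult1b1 between -0.021 and 0.152 in the WT sexes, -0.013 and 0.141 in the female genotypes and -0.113 and 0.054 in the male genotypes. It moved Sult1d1 between -0.235 and 0.027 in the male genotypes and between -0.037 and 0.327 in ESR1KO females against WT males. Sult2a8 moved between -0.19 and 0.11 in the last comparison, where total counts without TMM gave 0.026, and Sult3a1, on 3 reads, between -0.26 and 2.28 in the male genotypes. The cause of these changes was not tested.

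The replicate numbers did not pair the mice: the correlations of 19 same-numbered pairs lay between -0.195 and 0.14, and 1 of 15 mice correlated best with its own number. A replicate block called 5 members between the WT sexes and 3 for the interaction, both without Sult2a8 (adjusted p = 0.0773 and 0.0976), and gave 0.006 for Sult2a8 between ESR1KO females and WT males and -0.46 for Sult3a1 between the male genotypes. ESR1KO female 5 shares its number with no other mouse and is fitted there by a term of its own.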
